A study of Mus musculus with 12 samples.

Results

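Scn4b, Scn3b, Hcn2, Hcn4 and Atp1b1 were chosen as genes for sodium channel subunits, pacemaker channels and the sodium pump, and were found by their symbols in the tables of gene counts. All 5 of the 5 listed symbols were present among the 23337 genes measured. RNA-seq was done on 12 samples of cardiomyocytes (CMs, the contracting cells of the heart), 3 in each of 4 groups. CTRL mice were Srf-flox/+ and KO mice were Srf-flox/flox, where Srf encodes serum response factor, a transcription factor of muscle genes, and the floxed allele is lost when Cre recombinase acts. All groups, CTRL included, received AAV9-cTNT-Cre, a virus that makes Cre under the CM promoter of cardiac troponin T. The neonatal groups were injected at postnatal day 1 and collected at day 14 (P14), and the adult groups were injected at day 60 and collected at day 90 (P90).

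Several features limit these groups as models. The virus was given at a low dose that reached a minority of CMs, and the cells that had switched on a Cre-dependent fluorescent reporter were sorted for RNA. CTRL cells therefore also saw Cre and kept a single intact copy of Srf. All mice were of mixed genetic background, and the protocol for CM isolation took the cells from the apex of the digested heart. Srf was at 63.9, 57.1 and 49.4 CPM (the usual unit of counts relative to the library total, which was scaled by the TMM method) in P14 CTRL and at 32.1, 27.5 and 9.75 CPM in P14 KO. It was at 71.1, 59.1 and 81.0 CPM in P90 CTRL and at 32.8, 28.9 and 28.1 CPM in P90 KO. Every KO sample was below every CTRL sample of its age, and P14 KO replicate 3 held the least Srf. The edgeR adjusted p for Srf was 0.0628 at P14 and 0.00347 at P90. In the fit of all 12 samples it was 0.00999 at P14 and 0.180 at P90, and at P14 it was 0.00288 with DESeq2, 0.0129 without the filter on low counts and 0.0474 without KO replicate 3. Libraries held 9740389 to 23103460 counts, at which 3 counts amount to 0.138 to 0.326 CPM. Reads of Y-linked genes were found in 3 samples, which were replicate 1 of P14 CTRL, replicate 3 of P14 KO and replicate 3 of P90 CTRL. The 8 CM markers (Myh6, Actn2, Tnnt2, Tnni3, Ryr2, Ttn, Myl2 and Myl3) summed to between 67190 and 106263 CPM in every sample. The sum was lower in KO at both ages (67190 to 73662 against 96943 to 106263 at P14, and 80199 to 82090 against 90575 to 100981 at P90). Myh6, the most abundant of them, was at 31812 to 38340 CPM in P14 KO and 46962 to 62537 in P14 CTRL, whereas Actn2 was at 6221 to 6818 and 5261 to 5521. The study reports lower Myh6, Myl2, Myl3 and Tnni3 in neonatal KO, with strong Srf binding near these genes. The sum is therefore not a measure of CM content alone. Single markers did not all follow the sum. At P90 the means of Tnnt2, Tnni3, Myl2 and Actn2 were higher in KO (Tnnt2 12126 against 9919 CPM in CTRL). Those of Myh6, Ryr2, Ttn and Myl3 were lower in P90 KO (Myh6 40538 against 55320 CPM).

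As background, a voltage-gated sodium channel is a pore-forming alpha subunit with smaller beta subunits, and its opening starts the action potential of working CMs. HCN channels carry an inward current on hyperpolarization, the funny current that helps to drive the sinoatrial node, and their expression in ventricular muscle is known to fall as the heart matures. The sodium pump, an alpha and a beta subunit with an FXYD regulator, exchanges sodium for potassium and keeps the gradient that both kinds of channel use.

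The genes lie apart on mm10. Scn4b (chr9:45139042-45154061, plus strand) encodes a beta subunit linked to the alpha subunit by a disulfide bond, and Scn3b (chr9:40269216-40291618, plus strand) encodes a beta subunit without such a bond. Hcn4 (chr9:58823512-58860955, plus strand) encodes the principal HCN channel of the sinoatrial node and Hcn2 (chr10:79716634-79736108, plus strand) the main HCN channel of ventricular muscle. Atp1b1 (chr1:164437267-164458355, minus strand) encodes the main beta subunit of the cardiac sodium pump. Of the Atp1b1 exons, 30 bases (1.24%) overlap Nme7 on the other strand, and no other member shared exon bases with another gene.

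Promoter sequences were matched in RefSeq for 4 of the 5 genes. The 250 bases before the RefSeq start of Hcn2 and of Hcn4 are shown because these channel genes passed the test in neonatal KO with opposite signs. The RefSeq start of Hcn4 lies before the first exon base used for its counts. Both are read on the plus strand of GRCm38.p6, the assembly behind mm10, and capitals mark the GC box, written GGGCGG or, on the other strand, CCGCCC.
Hcn2 (chr10:79716384-79716633): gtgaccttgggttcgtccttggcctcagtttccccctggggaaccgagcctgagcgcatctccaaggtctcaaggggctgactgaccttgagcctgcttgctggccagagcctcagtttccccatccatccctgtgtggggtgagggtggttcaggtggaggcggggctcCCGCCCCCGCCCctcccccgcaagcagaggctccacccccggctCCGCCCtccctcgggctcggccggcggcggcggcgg
Hcn4 (chr9:58822699-58822948): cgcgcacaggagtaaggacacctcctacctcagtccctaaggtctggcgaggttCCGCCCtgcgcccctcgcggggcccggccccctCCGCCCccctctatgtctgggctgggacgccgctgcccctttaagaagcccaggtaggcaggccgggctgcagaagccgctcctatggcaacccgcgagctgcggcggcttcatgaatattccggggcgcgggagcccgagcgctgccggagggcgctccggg
The Hcn2 window held 3 GC boxes and the Hcn4 window 2, at a GC content of 70.4% and 71.2%. Atp1b1 held 2 GC boxes and Scn4b 0 in windows of the same length, and 32.7% of all 32851 promoters held at least 1. The letters TATAAA (read on both strands, found in 12.4% of all promoters) and the CArG box, the site that Srf binds (1.47% of all promoters), had 0 matches in each of the 4 windows. These are descriptions of letters in a short window and say nothing of where Srf binds.

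The first question was which of these genes differed when Srf was removed from CMs soon after birth. In neonatal KO Hcn4 was about 2-fold higher than in CTRL and Hcn2 was about 0.53 of CTRL, so that the pair moved in opposite directions. Scn4b was lower in all 3 KO samples but did not pass the test, and Atp1b1 was at the same mean level to within 1%. Of the 5 genes, 2 were called (edgeR quasi-likelihood test, Benjamini-Hochberg adjusted p under 0.05 over all genes tested), where 8.59% of the 12546 genes tested were called. The 2 groups did not overlap for 3 of the 5 genes, against 32.7% of all genes tested. These are sorted pools of cells, in which fewer cells expressing a gene and less RNA per cell cannot be told apart.

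**Figure D1:**
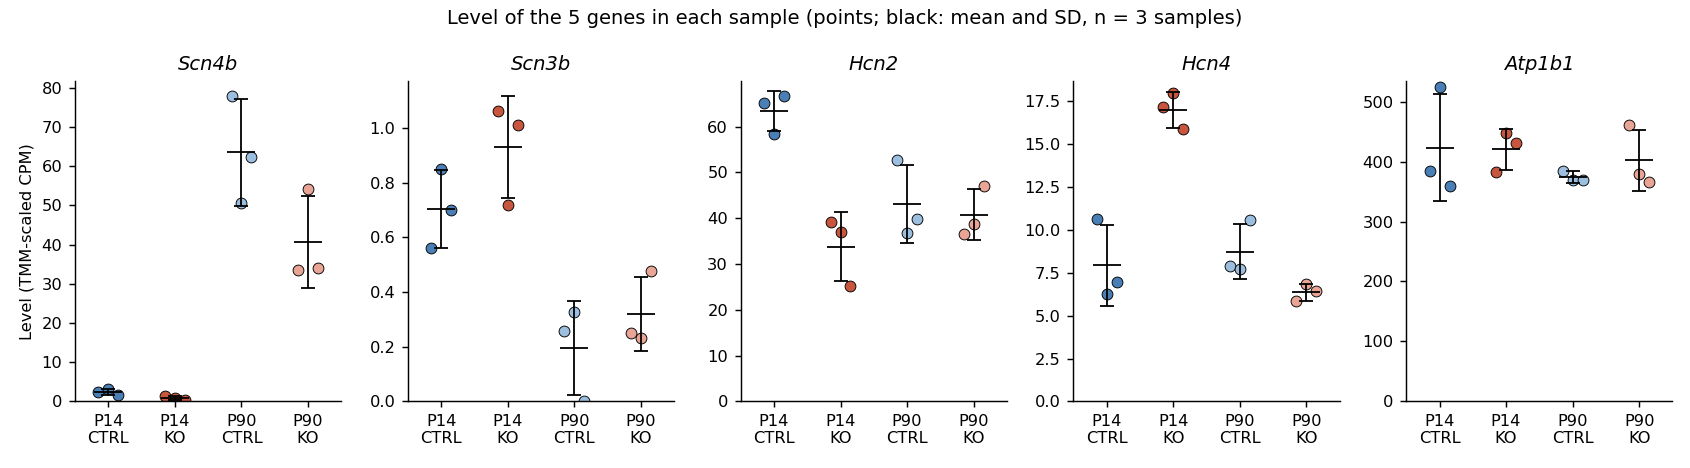
Each panel gives 1 gene, with TMM-scaled CPM on a linear axis from 0 and the 4 groups along the bottom. Points are samples and black lines are the mean and SD of 3 samples. P14 KO stands above the other groups for Hcn4 and below P14 CTRL for Hcn2, and both P90 groups stand far above both P14 groups for Scn4b.

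Among the pacemaker channels, Hcn4 was at 10.7, 6.25 and 6.96 CPM in P14 CTRL and at 17.2, 18.0 and 15.9 CPM in P14 KO. The lowest KO sample was above the highest CTRL sample, and the KO samples lay closer together (SD 1.05, n = 3) than the CTRL samples (SD 2.36, n = 3). The log2 fold change was 1.09 (SE 0.21, 95% interval 0.61 to 1.57, edgeR adjusted p = 0.0209). The call was lost when any KO sample was left out, with a log2 fold change of 1.09, 1.06 and 1.15 and an adjusted p of 0.0797, 0.0877 and 0.0745 without replicates 1, 2 and 3. With only the samples that held no Y-linked reads it was 1.41, with an adjusted p of 0.0469.

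Hcn2 was at 65.1, 58.4 and 66.7 CPM in P14 CTRL and at 39.1, 37.1 and 25.2 CPM in P14 KO. The highest KO sample was under the lowest CTRL sample, and KO replicate 3 was the lowest. That replicate, which held the least Srf, was also the lowest KO sample for Hcn4, where it lay nearest to CTRL. The log2 fold change was -0.91 (SE 0.17, 95% interval -1.30 to -0.53, edgeR adjusted p = 0.0189). Without KO replicate 1 or 2 the adjusted p was 0.0542 and 0.0765, at log2 fold changes of -1.02 and -0.97. With only the samples that held no Y-linked reads it was 0.0966, at -0.72.

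Levels of different genes were compared as CPM per kilobase of exon. On this scale Hcn2 was at 19.8 (SD 1.37, n = 3) and Hcn4 at 2.09 (SD 0.623, n = 3) in P14 CTRL, and at 10.6 (SD 2.36, n = 3) and 4.48 (SD 0.275, n = 3) in P14 KO. Hcn2 thus remained the more abundant transcript in every neonatal sample. The level of Hcn4 per level of Hcn2 was 0.138, 0.0900 and 0.0877 in the P14 CTRL samples and 0.369, 0.408 and 0.532 in the P14 KO samples. Every KO value was more than 2 times every CTRL value. This ratio is given as a description of the levels above, with no test.

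**Figure D2:**
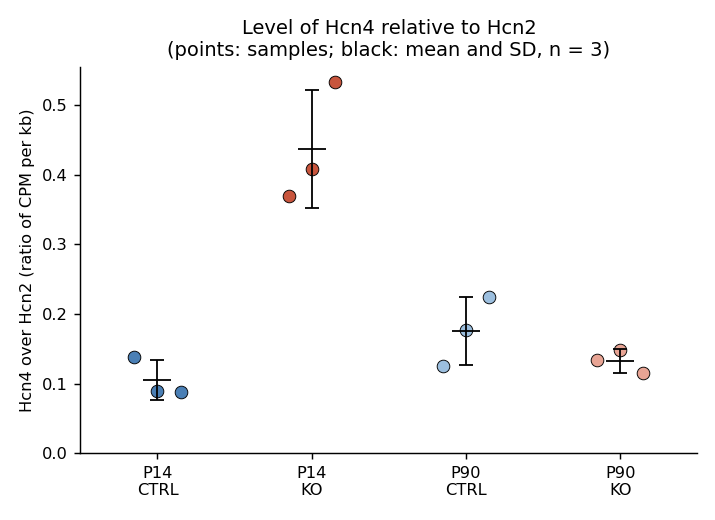
Each point is 1 sample, with the level of Hcn4 over the level of Hcn2 (both as CPM per kilobase) on a linear axis from 0, and black lines are the mean and SD of 3 samples. P14 KO lies between 0.369 and 0.532 and the other groups lie between 0.0877 and 0.224.

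Markers of other heart cells were summed for each sample. The fibroblast sums overlapped between P14 CTRL (96.2 to 285 CPM) and P14 KO (168 to 300 CPM). The endothelial sums overlapped too (170 to 368 and 219 to 329 CPM), as did the immune and neuronal sums. The 6 atrial markers summed to 71.4 to 512 CPM in P14 CTRL and to 315 to 1193 CPM in P14 KO, mostly Nppa, which encodes atrial natriuretic peptide and is also made by stressed ventricular CMs. Of the 5 atrial markers tested, 1 was called in neonatal KO, Myl4, the atrial essential myosin light chain, which was higher. P14 KO replicate 3 had 0 counts of Sln and of Bmp10 and 1 count of Myl7, all listed here as atrial markers, and held 15.9 CPM of Hcn4. Its Myl4 level of 8.49 CPM was above the 3.14 to 4.40 CPM of P14 CTRL, and its Nppa level of 296 CPM was above 2 of the 3 CTRL samples (52.4 to 497 CPM). Its atrial sum of 315 CPM was below the 512 CPM of P14 CTRL replicate 1, which held 10.7 CPM of Hcn4. In P14 KO replicates 1 and 2 the Myl7 level was 24.1 and 8.94 CPM. The study lists Myl7 and Myl4 as immature myofibril isoforms that rose in neonatal KO CMs, so they do not mark atrial cells alone. The 14 nodal and conduction system genes summed to 107 to 244 CPM in P14 CTRL and to 270 to 347 CPM in P14 KO. Of these sums, Cacna1g gave 45.0 to 55.1 CPM in CTRL and 107 to 160 CPM in KO. Irx3, Gjc1, Cntn2 and Cacna1h overlapped between the groups, whereas Tbx3 and Gja5 were higher in every KO sample. Shox2 was at 0 counts in all 6 P14 samples and Isl1 at 0 to 2 counts, both transcription factors of the sinoatrial node. The sum of 6 smooth muscle and pericyte markers was lower in KO, at 907 to 1385 CPM in P14 CTRL and 251 to 478 CPM in P14 KO. Most of that sum was Acta2, a smooth muscle actin that immature CMs also express, which was lower in KO (log2 fold change -1.87, edgeR adjusted p = 0.0128). Myh11, Tagln, Rgs5, Pdgfrb and Kcnj8 overlapped between the groups, with higher KO means for Myh11 and Tagln. The part of other cells in the Hcn4 difference was not tested beyond these values.

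**Figure D3:**
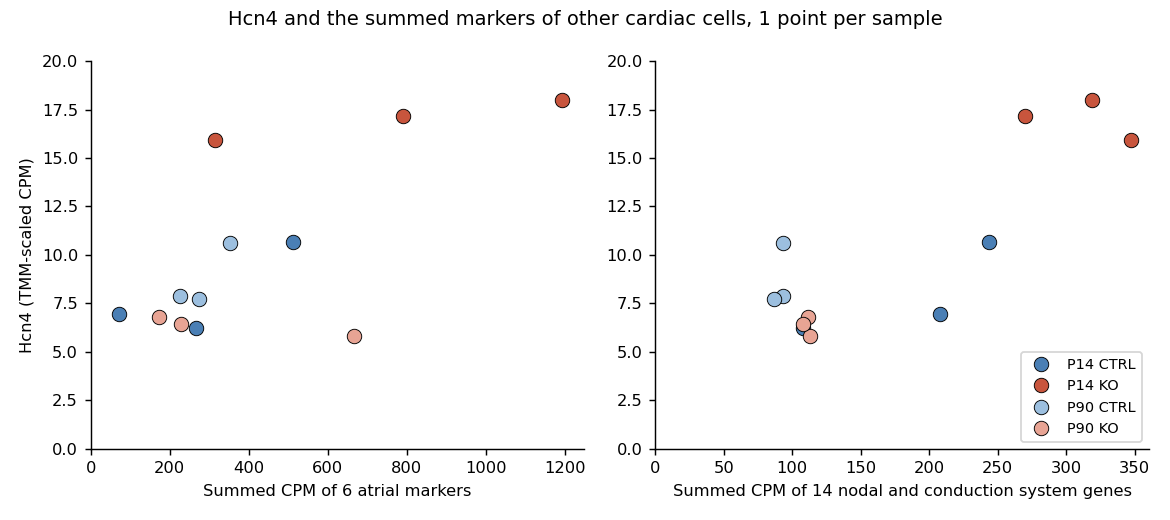
Each point is 1 sample, with Hcn4 (TMM-scaled CPM) on the vertical axis and the summed CPM of 6 atrial markers (left) or 14 nodal and conduction system genes (right) on the horizontal axis. P14 KO points lie at 15.9 to 18.0 CPM of Hcn4 over atrial sums of 315 to 1193 CPM, and P90 KO replicate 1, with an atrial sum of 666 CPM, lies at 5.84 CPM. In the right panel the P14 KO points lie at sums of 270 to 347 CPM, above all others. There P14 CTRL lies at 107 to 244 CPM, P90 CTRL at 86.8 to 93.1 CPM and P90 KO at 107 to 113 CPM.

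Among the sodium channel beta subunits, Scn4b was at 2.30, 3.20 and 1.58 CPM in P14 CTRL and at 1.44, 0.909 and 0.455 CPM in P14 KO. These levels rest on 27 to 64 counts a sample in CTRL and 9 to 27 in KO. The groups did not overlap, and KO replicate 3 was the lowest. The log2 fold change was -1.34 (SE 0.47, 95% interval -2.41 to -0.28), and the edgeR adjusted p of 0.116 missed the threshold. In the fit of all 12 samples it was -1.35 with an adjusted p of 0.0328. Scn3b was at 0.563, 0.850 and 0.702 CPM in P14 CTRL and at 1.06, 0.717 and 1.01 CPM in P14 KO, from 12 to 20 counts a sample. The groups overlapped, and the log2 fold change of 0.39 (SE 0.38, 95% interval -0.47 to 1.25, edgeR adjusted p = 0.573) left a rise of over 2-fold within its interval.

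For the pump, Atp1b1 was at 384, 525 and 359 CPM in P14 CTRL and at 383, 448 and 431 CPM in P14 KO. CTRL replicate 2 was the highest sample and the groups overlapped. The log2 fold change was -0.01 (SE 0.16, edgeR adjusted p = 0.976) with a 95% interval of -0.38 to 0.35. At these counts (6140 to 10498 a sample) Atp1b1 was the most deeply measured of the 5 genes.

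Around these genes, 71 others of the same pathways were listed: further sodium channel, pump and FXYD subunits, channel partners, sodium transporters and nodal genes. In neonatal KO 48 of them were tested and 2 were called, both higher (4.17%, against 8.59% of all genes tested). Their median log2 fold change over the 48 was -0.07 beside 0.001 over all genes. Cacna1g, a T-type calcium channel of immature and nodal CMs, was at 55.1, 45.0 and 51.4 CPM in P14 CTRL and at 107, 137 and 160 CPM in P14 KO (log2 fold change 1.41, SE 0.16, edgeR adjusted p = 0.00548). Nedd4l, a ubiquitin ligase known to remove sodium channels from the membrane, was at 48.5 to 56.6 CPM in P14 CTRL and at 74.5 to 80.4 CPM in P14 KO. Its log2 fold change was 0.54 (SE 0.10, edgeR adjusted p = 0.0209). The Nedd4l call was lost without KO replicate 1, 2 or 3 (adjusted p 0.0693, 0.0778 and 0.0919) and with only the samples that held no Y-linked reads (0.129).

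The second question was whether removal of Srf from mature CMs had the same effect. In adult KO no member was called by edgeR among the 4 tested, where 0.390% of the 11808 genes tested were called. An unadjusted p under 0.05 was reached by 2 members, Scn4b and Hcn4, both lower in KO. Over all genes, 1910 of the 11808 tested reached an unadjusted p under 0.05. DESeq2 called 1 of the 4 members, Scn4b, among 343 genes called. The groups did not overlap for 1 of the 4 genes, Hcn4, against 21.6% of all genes tested.

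Scn4b was at 77.9, 50.5 and 62.3 CPM in P90 CTRL and at 33.6, 54.1 and 34.1 CPM in P90 KO. KO replicate 2 lay above CTRL replicate 2, and the other KO samples lay below all CTRL samples. The log2 fold change was -0.64 (SE 0.20, 95% interval -1.07 to -0.21, edgeR adjusted p = 0.154). DESeq2 gave an adjusted p of 0.0356 at a log2 fold change of -0.65.

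Hcn4 was at 7.89, 7.71 and 10.6 CPM in P90 CTRL and at 5.84, 6.82 and 6.42 CPM in P90 KO. Every KO sample was below every CTRL sample, the opposite order to that at P14. The log2 fold change of -0.45 (SE 0.18, 95% interval -0.84 to -0.059) had an edgeR adjusted p of 0.250. Hcn2 was at 52.8, 36.7 and 39.8 CPM in P90 CTRL and at 36.5, 38.7 and 47.0 CPM in P90 KO, with overlapping groups. Its log2 fold change was -0.09 (SE 0.15, 95% interval -0.41 to 0.24, edgeR adjusted p = 0.812).

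Atp1b1 was at 385, 368 and 369 CPM in P90 CTRL and at 460, 379 and 366 CPM in P90 KO. The groups overlapped, with KO replicate 1 the highest (log2 fold change 0.11, SE 0.11, 95% interval -0.12 to 0.34, edgeR adjusted p = 0.656). Scn3b held 5, 3 and 0 counts in the P90 CTRL samples and 4, 5 and 6 in P90 KO, which was under the filter, so that a difference was not detectable at this depth. Its levels were 0.258, 0.326 and 0 CPM in CTRL and 0.251, 0.230 and 0.476 CPM in KO. Of the 45 other pathway genes tested in adult KO, 1 was called (2.22%, against 0.390% of all genes tested). The called gene was Slc8a1, the cardiac sodium-calcium exchanger. It was at 185, 211 and 204 CPM in P90 CTRL and at 120, 114 and 121 CPM in P90 KO (log2 fold change -0.75, SE 0.09, edgeR adjusted p = 0.00755). The Slc8a1 call was lost without KO replicate 2 (-0.72, adjusted p = 0.0695) and once a trend with exon length was removed (-0.30, adjusted p = 0.333). At P14 Slc8a1 was also lower in every KO sample (153 to 193 against 226 to 256 CPM in CTRL). Its neonatal log2 fold change of -0.43 was not called by edgeR (adjusted p = 0.0743) but was by DESeq2 (adjusted p = 0.0201). The difference between ages for Slc8a1 was 0.33 and was not called (edgeR adjusted p = 0.243).

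**Figure D4:**
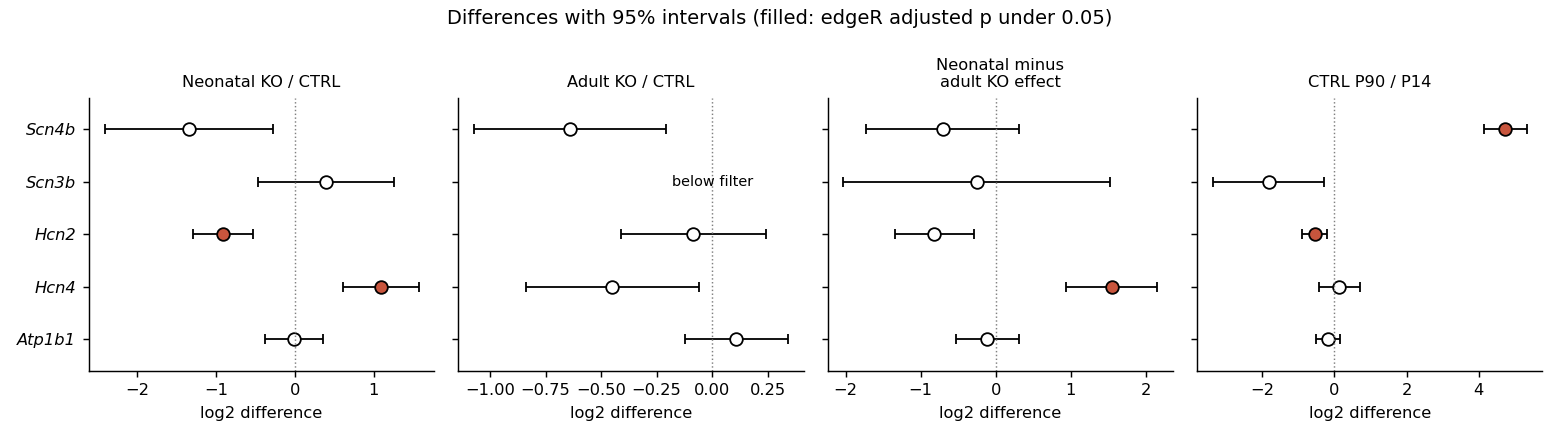
Points are log2 differences from edgeR for each gene with 95% intervals, in 4 comparisons with separate horizontal scales, and filled points passed an adjusted p under 0.05. Hcn4 lies at 1.09 in neonatal KO and at -0.45 in adult KO, and Scn4b lies at 4.74 in the comparison of the CTRL groups.

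The third question was whether the effect of KO differed between the ages, asked as the neonatal minus the adult log2 fold change in a fit of all 12 samples. Hcn4 was the member that differed, with a rise in neonatal KO and a lower level in adult KO that was not called on its own. Of the 5 genes, 1 was called, where 1.78% of the 12841 genes tested were called. The difference for Hcn4 was 1.55 (SE 0.28, 95% interval 0.94 to 2.16, edgeR adjusted p = 0.0227). It was 1.40 to 1.62 when 1 sample was left out at each of the 6 points at which the call was lost (any P14 KO replicate, P90 CTRL replicate 3, and P90 KO replicates 1 and 2), with adjusted p from 0.0518 to 0.0734. For Hcn2 the difference was -0.82 (SE 0.24, 95% interval -1.34 to -0.29, edgeR adjusted p = 0.101), and DESeq2 gave an adjusted p of 0.0273. Scn4b differed by -0.71 (SE 0.47, adjusted p = 0.457), Scn3b by -0.25 (SE 0.83, adjusted p = 0.907) and Atp1b1 by -0.11 (SE 0.20, adjusted p = 0.815), all by edgeR.

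The level of Hcn4 per level of Hcn2, on the scale of CPM per kilobase, was 0.105 (SD 0.028, n = 3) in P14 CTRL, 0.436 (SD 0.085, n = 3) in P14 KO, 0.176 (SD 0.049, n = 3) in P90 CTRL and 0.133 (SD 0.017, n = 3) in P90 KO. P14 KO stood apart from the other 3 groups, whose samples lay between 0.0877 and 0.224. Of 49 other pathway genes tested for a difference between ages, Cacna1g (1.24, SE 0.20, edgeR adjusted p = 0.0210) and Nedd4l (0.68, SE 0.12, adjusted p = 0.0235) were called, both more positive at P14. These were 4.08% of the 49, against 1.78% of all genes tested. The call for Cacna1g was lost without P90 CTRL replicate 3 or P90 KO replicate 1 or 2 (adjusted p 0.0633, 0.0577 and 0.0716) and with only the samples that held no Y-linked reads (0.0960). That for Nedd4l was lost without any P14 KO replicate, any P90 CTRL replicate, or P90 KO replicate 1 or 2, each left out in turn (adjusted p 0.0509 to 0.0822), and in the samples without Y-linked reads (0.115). For Nedd4l the difference was 0.33 with an adjusted p of 0.206 once a trend with exon length was removed.

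The last comparison set P90 CTRL against P14 CTRL, in which age, time since injection and collection differed together and cannot be told apart. Scn4b rose about 27-fold with age and Hcn2 fell to about 0.68 of its P14 level. Of the 5 genes, 2 were called, where 29.3% of the 12294 genes tested were called, and the groups did not overlap for 3 of the 5, against 44.9% of all genes tested. Scn4b went from 1.58 to 3.20 CPM at P14 to 50.5 to 77.9 CPM at P90 (log2 fold change 4.74, SE 0.26, 95% interval 4.15 to 5.33, edgeR adjusted p = 1.81e-05). Every P90 sample, KO included, was over 10-fold above every P14 sample. In the KO samples the P90 mean was 43.5 times the P14 mean, a value for which no test was made.

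Hcn2 fell by 0.55 on the log2 scale between the CTRL groups (SE 0.15, edgeR adjusted p = 0.0257). The call was lost without P14 CTRL replicate 1 or 3, without P90 CTRL replicate 2 or 3 and without the samples holding Y-linked reads, at adjusted p of 0.0826, 0.0666, 0.0881, 0.115 and 0.236. Scn3b was lower in every P90 CTRL sample, with a log2 fold change of -1.83 (SE 0.69, 95% interval -3.38 to -0.28, edgeR adjusted p = 0.0741). Hcn4 (0.13, SE 0.25, 95% interval -0.44 to 0.70, adjusted p = 0.722) and Atp1b1 (-0.17, SE 0.15, 95% interval -0.50 to 0.16, adjusted p = 0.401) did not pass the edgeR test.

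Of 47 other pathway genes tested between the CTRL groups, 11 rose and 10 fell (44.7%, against 29.3% of all genes tested). Their median log2 fold change was -0.16. Those that rose beside Scn4b included the pore subunit Scn4a (2.13, SE 0.22, edgeR adjusted p = 0.000337). Among pump subunits the beta subunit Atp1b2 fell by 1.74 on the log2 scale (SE 0.23, edgeR adjusted p = 0.000978). Atp1b1 stayed the most abundant pump beta subunit per kilobase in every sample, with a share of 77.6% (SD 2.99, n = 3) in P14 CTRL, 78.1% (SD 1.21, n = 3) in P14 KO, 80.8% (SD 0.324, n = 3) in P90 CTRL and 80.0% (SD 0.948, n = 3) in P90 KO. Dlg1, Gpd1l, Slc4a7, Slc12a2 and Rangrf were also among those that rose, by 0.42 to 1.40 on the log2 scale. The exons of Rangrf overlap those of a neighbouring gene. The other genes that fell were Sntb1, Cav3, Fgf13, Kctd3, Flna, Cntn2, Cacna1g, Gjc1 and Gja5. Of the cell markers tested, 3 of 5 fibroblast, 5 of 6 endothelial and 2 of 2 neuronal markers fell, and 4 of 5 atrial markers rose. Of all genes tested, 29.3% were called. The atrial sums overlapped (71.4 to 512 CPM in P14 CTRL and 225 to 352 CPM in P90 CTRL), and their largest part, Nppa, had a lower mean at P90. The smooth muscle and pericyte sums were lower at P90 (907 to 1385 CPM in P14 CTRL and 250 to 397 CPM in P90 CTRL). The part of other cells in the age differences was not tested.

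Ordered by mean level, Scn4b stood at P14 KO, P14 CTRL, P90 KO and P90 CTRL from low to high, and of these neighbours only P90 KO and P90 CTRL overlapped. For Hcn4 the order was P90 KO, P14 CTRL, P90 CTRL and P14 KO, and only the step to P14 KO had no overlap. Hcn2 ran from P14 KO over P90 KO and P90 CTRL to P14 CTRL, with a gap only before P14 CTRL. Scn3b ran from P90 CTRL over P90 KO and P14 CTRL to P14 KO, with a gap only between P90 KO and P14 CTRL. For Atp1b1 all neighbours overlapped and the group means lay between 374 and 423 CPM.

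The genes closest to each member in pattern were sought over the 12 samples, by the root mean square difference of log2 CPM after each gene was centred on its own mean. For Scn4b these were Mgst1 (0.53), Kcnv2 (0.61) and Ces1d (0.65), beside a spread of 2.60 for Scn4b itself. Mgst1, a glutathione transferase of membranes, had means of 4.83, 2.88, 81.6 and 54.1 CPM in P14 CTRL, P14 KO, P90 CTRL and P90 KO. For Hcn4 they were Camk2b (0.22), Rhbdf2 (0.22) and Mov10 (0.22), and Camk2b, a subunit of a calcium-dependent kinase, had means of 16.3, 40.8, 18.9 and 15.3 CPM in the same order. For Hcn2 they were Abcc8 (0.17), Slc29a2 (0.20) and Ppargc1b (0.21), of which Abcc8 encodes a regulatory subunit of ATP-sensitive potassium channels and Ppargc1b a coactivator of mitochondrial genes. Those of Scn3b were Pan2 (0.43), Rab31 (0.46) and Galntl4 (0.46), beside a spread of 0.92 for Scn3b itself. Scn3b held 0 to 20 counts a sample, so that its pattern was weakly measured. Those of Atp1b1 were Psmb1 (0.086), Tmem80 (0.087) and Brd9 (0.089). For Atp1b1, itself with a spread of 0.16, the likeness is that of genes that varied little.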

How the data were processed

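CMs were sorted for the reporter, and polyA RNA was amplified (SMART-Seq v4) and made into Nextera XT libraries. The submitters' processing notes name CASAVA 1.8, STAR 2.5.3a, featureCounts of Subread 1.5.2 and mm10. The authors deposited raw read counts per gene, 1 table for each age with 23337 genes. Strand and multimapping settings are not given in the sources used here. The samples of a group came from separate hearts per the study, and no replicates of a group were alike within sampling noise.

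Groups followed the labels. Counts were tested in R 4.3.3 with edgeR 4.0.16 (filterByExpr, TMM, glmQLFit, glmQLFTest, no covariates), neonatal and adult tables separately, and with all 12 samples for the difference between ages. P-values were adjusted by Benjamini-Hochberg over all genes tested, at a threshold of 0.05, and the steps were tested on simulated data. The SE was the log2 fold change over the root of F. CPM used TMM factors over all 12 samples. The CTRL comparison across ages used 2 tables counted separately. The members, gene lists and rules were chosen with earlier results of these data known: members were named throughout, other listed genes where called or a paralogue, and the 3 genes nearest in pattern among those with a mean of at least 5 CPM. Figures were drawn with matplotlib 3.10.9. Alternatives were DESeq2 1.42.0, other scaling, no filter, a replicate block, an exon-length trend, a fit of all samples, each sample left out, and, chosen after seeing the data, samples without Y-linked reads. Some of the listed genes are not reported here.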

Additional observations from a re-analysis of the deposited data

Results flagged for a closer look

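The effect of KO on Hcn4 differed between the ages, by 1.55 on the log2 scale (neonatal minus adult, edgeR interaction adjusted p = 0.0227), with all 3 KO samples above CTRL at P14 and all 3 below CTRL at P90. KO and CTRL did not overlap for 32.7% of all genes tested at P14 and 21.6% at P90. The lower level of Hcn4 at P90 was not called (log2 fold change -0.45, edgeR adjusted p = 0.250). The interaction test found a difference of 1.24 for Cacna1g (adjusted p = 0.0210) and of 0.68 for Nedd4l (adjusted p = 0.0235). Leaving out 1 sample lost the call at 6 of the 12 samples for Hcn4, 3 of 12 for Cacna1g and 8 of 12 for Nedd4l. With only the samples that held no Y-linked reads the adjusted p was 0.0405 for Hcn4, 0.0960 for Cacna1g and 0.115 for Nedd4l, and removing a trend with exon length left Nedd4l at 0.33 (adjusted p = 0.206).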

How the results depend on the processing

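No result turned direction past its threshold. Counts of all genes called, beside the members called in brackets, depended on settings. For neonatal KO (1078 genes) DESeq2 gave 1832, total counts without TMM 1724 (1405 higher and 319 lower, against 501 and 577), the fit of all 12 samples 2088 (with Scn4b past the threshold), samples without Y-linked reads 88 (1 member, Hcn4), and leaving out 1 sample 111 to 1004 (0 to 2 members). For adult KO (46 genes) DESeq2 gave 343 (1), no filter 701 (1), removing the exon-length trend 84, the fit of all samples 3, and leaving out 1 sample 6 to 51. The adult member gained was Scn4b, at adjusted p from 2.45e-05 to 0.352 over its alternatives. For the difference between ages (228 genes) DESeq2 gave 916 (2), no filter 474 (2), samples without Y-linked reads 15, and leaving out 1 sample 4 to 377 (0 to 1). Between the CTRL groups (3607 genes) samples without Y-linked reads gave 925 (1) and leaving out 1 sample 2067 to 4768 (1 to 2). Without TMM the median log2 fold change of all genes moved by 0.21, 0.18 and -0.11 in the neonatal, between-age and CTRL comparisons. Over the alternatives Hcn4 in neonatal KO stayed between 0.94 and 1.41 (11 of 14 past the threshold) and Hcn2 between -1.02 and -0.70 (11 of 14). Scn4b between the CTRL groups passed in 14 of 14.

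Same-numbered samples deviated together in part (correlations 0.047, 0.148 and 0.360 at P14 and 0.181, -0.00034 and 0.054 at P90), not every sample was closest to its own number,, and since not every pair was over 0.1 the numbers were not read as pairs. With the replicate block 655 genes were called in adult KO (1 member, Scn4b, adjusted p = 0.0226) and 687 in the difference between ages, and Srf in neonatal KO had an adjusted p of 0.0220. Counting depth limited Scn3b, at 0 to 20 counts a sample.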
